A study of Mus musculus with 4 samples.

Results

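Genomic imprinting restricts expression of a gene to the copy from 1 parent, and many imprinted genes are long noncoding RNAs or regulators of growth. The 10 genes described here were H19, Meg3, Rian, Mirg and Kcnq1ot1, which are noncoding, and Dlk1, Peg3, Mest, Plagl1 and Grb10, which encode proteins. They were chosen by name, as rows whose identifier equalled 1 of these 10 symbols, out of 25072 gene symbols in the 4 expression tables of the study. Every member had 1 row in every table.

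The study followed enhancer RNAs during differentiation of C2C12, an established mouse myoblast line. Proliferating myoblasts (MB, labelled DM -24 hours) and myotubes (MT, 72 h in differentiation medium, DM) were each profiled by 1 strand-specific total RNA-seq library after removal of ribosomal RNA. MT transfected with an siRNA against hnRNPL (si-hnRNPL) or with a control siRNA (si-NC), both at 48 h of DM, were each profiled by 1 polyA RNA-seq library. The cells carry no labelled mutation, all 4 libraries come from this single line, and an MT library is a culture that can hold unfused cells as well as myotubes. Because the 4 groups had 1 library each, differences could not be checked against replicates and no test was made. Levels are FPKM (fragments scaled to transcript length and to the size of the library) with the deposited 95% interval, which covers error within a library only. A difference is the log2 ratio of FPKM + 1 between 2 libraries, and it was called at a fold of 1.5 or more.

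Imprinted genes lie in domains in which noncoding RNAs and protein-coding genes are often expressed from opposite parental copies. H19 is an abundant RNA of embryonic tissue and regenerating muscle and is the host of miR-675. Meg3, Rian and Mirg are transcribed from the maternal copy of the Dlk1 to Dio3 domain and carry many microRNAs and snoRNAs. Kcnq1ot1 is a very long nuclear RNA of the paternal copy that is antisense to Kcnq1. Dlk1 is a membrane protein related to the Notch ligands, Peg3 and Plagl1 are zinc finger proteins, Mest is a hydrolase-fold protein of the endoplasmic reticulum and Grb10 is an adaptor that dampens signaling of the insulin and IGF1 receptors.

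Of the 10 members, H19, Mest and Peg3 had an FPKM of at least 1 in all 4 libraries, and all 3 were higher in MT than in MB. Mest differed by 13.01-fold, H19 by 4.02-fold and Peg3 by 3.08-fold in FPKM. Kcnq1ot1, Grb10 and Plagl1 were above 0 but under 1 in every library. Rian, Mirg, Dlk1 and Meg3 were listed at 0 in MT and in both polyA libraries. No member passed the fold of 1.5 between si-hnRNPL and si-NC. In bulk cultures, a change in the number of cells of a type and a change of RNA per cell cannot be told apart.

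The microRNAs that the members host are shown first, since several members are known mainly as their precursors. The mature sequences were taken from RefSeq (GRCm38.p6), and capitals mark the seed, bases 2 to 8. The pairs of miR-675 from H19 and of miR-335 from Mest belong to hosts that were higher in MT. One sequence each from Meg3 (miR-770-5p), Rian (miR-370-3p) and Mirg (miR-410-3p) stands for the hosts that were at or near 0.
miR-675-5p: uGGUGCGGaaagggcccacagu
miR-675-3p: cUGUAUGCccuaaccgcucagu
miR-335-5p: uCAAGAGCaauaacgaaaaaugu
miR-335-3p: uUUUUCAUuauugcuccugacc
miR-770-5p: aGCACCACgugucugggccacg
miR-370-3p: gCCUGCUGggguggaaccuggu
miR-410-3p: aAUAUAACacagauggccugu

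The tables held 17 microRNA entries inside the members, 1 in H19, 2 in Meg3, 3 in Rian, 10 in Mirg and 1 in Mest, and all 17 matched RefSeq with 32 mature sequences. These had 31 different seeds. The single shared seed was GGUUGCC, of miR-453 and miR-496a-5p, both from Mirg. In mm9, the build of the tables, the Mir675 hairpin spans chr7:149762969-149763052 and lies whole in exon 1 of H19, whereas the Mir335 hairpin at chr6:30691299-30691396 shares no base with an annotated Mest exon and is intronic. Mir770 lies in an exon of Meg3 (exon 5 of the longest transcript), Mir370 in an intron of Rian and Mir410 in an exon of Mirg. All 17 entries were listed at 0 in the 4 libraries. Of all 1213 microRNA entries, 3.05% were above 0 in MB and 2.64% in MT, so libraries of this kind gave a level for few hairpins of any gene, and these zeros carry no information on the mature microRNAs.

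The promoters of the 2 protein-coding members that were higher in MT, Mest and Peg3, and of 2 members of the Dlk1 to Dio3 domain, Meg3 and Dlk1, are given to show the sequence before starts of genes with and without detected RNA. Each line is the 250 bases before a RefSeq start, read along the gene's strand, and each had 1 exact match in mm9. The Mest lines end at starts about 4.5 kb apart, at chr6:30683256-30683505 and chr6:30687800-30688049 (plus strand). Peg3 is at chr7:6683131-6683380 (minus strand), Meg3 (the first of its starts) at chr12:110778956-110779205 and Dlk1 at chr12:110690783-110691032 (both plus strand). Capitals mark the letters CANNTG, the E-box that basic helix-loop-helix factors such as MyoD can bind, which reads the same on both strands.
Mest, upstream start: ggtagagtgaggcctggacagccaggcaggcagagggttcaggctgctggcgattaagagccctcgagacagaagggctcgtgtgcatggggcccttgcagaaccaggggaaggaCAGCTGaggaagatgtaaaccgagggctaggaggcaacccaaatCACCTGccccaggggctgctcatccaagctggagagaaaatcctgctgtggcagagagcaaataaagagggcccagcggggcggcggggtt
Mest, downstream start: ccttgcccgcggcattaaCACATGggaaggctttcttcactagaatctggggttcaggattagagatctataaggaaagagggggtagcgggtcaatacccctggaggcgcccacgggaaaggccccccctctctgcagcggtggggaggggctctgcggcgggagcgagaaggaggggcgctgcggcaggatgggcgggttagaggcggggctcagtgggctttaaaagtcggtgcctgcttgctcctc
Peg3: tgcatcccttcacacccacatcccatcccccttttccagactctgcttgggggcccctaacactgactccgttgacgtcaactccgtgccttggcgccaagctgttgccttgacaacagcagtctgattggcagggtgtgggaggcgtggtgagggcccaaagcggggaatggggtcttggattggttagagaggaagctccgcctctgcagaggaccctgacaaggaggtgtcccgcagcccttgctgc
Meg3: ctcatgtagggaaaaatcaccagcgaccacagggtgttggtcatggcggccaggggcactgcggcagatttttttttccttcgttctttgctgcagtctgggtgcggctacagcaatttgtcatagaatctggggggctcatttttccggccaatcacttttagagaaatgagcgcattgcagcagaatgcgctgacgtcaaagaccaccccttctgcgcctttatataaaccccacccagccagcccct
Dlk1: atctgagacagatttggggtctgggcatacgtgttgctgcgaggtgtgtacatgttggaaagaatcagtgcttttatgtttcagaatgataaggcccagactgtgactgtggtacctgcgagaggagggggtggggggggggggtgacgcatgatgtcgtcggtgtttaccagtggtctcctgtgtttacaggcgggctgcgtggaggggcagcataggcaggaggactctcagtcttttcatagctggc

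The upstream Mest sequence held 2 CANNTG, of which 1 was CAGCTG, and the downstream Mest sequence held 1. The Peg3, Meg3 and Dlk1 sequences held none in this window. Among starts not printed, Rian and Mirg held 1 CANNTG each, as did a second start of Meg3. Kcnq1ot1 and Plagl1 held 2 each, and the Grb10 starts held 1 and 0. The members covered here, with and without detected RNA, were thus not separated by these counts. H19 had no entry in the RefSeq promoter set and is left out. Among 32851 RefSeq promoters of this length, 66.2% held at least 1 CANNTG and 13% held CAGCTG. The downstream Mest sequence held 14 CpG and the upstream one 7, against 8 for Peg3, 10 for Meg3, 8 for Dlk1 and a median of 6 over all promoters. A match of letters is a description and not a binding site.

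Over all genes, the comparisons had unlike backgrounds. Of 11469 named entries with a mean FPKM of at least 1 in MB and MT, 14.4% were called higher in MT and 28.6% lower, and the median log2 difference was -0.21. Centred on that median, the calls changed from 1656 higher and 3278 lower to 2398 higher and 2203 lower. Between the polyA libraries, 1.33% of 11233 entries were called higher in si-hnRNPL and 0.846% lower. Hnrnpl itself, the siRNA target, was at an FPKM of 95.1 in si-NC and 85.9 in si-hnRNPL, a ratio of 0.904. The library labelled si-hnRNPL thus held most of the control level of its target RNA. The study examined the knockdown by Western blot of the protein, which these RNA levels do not measure. The myotube markers followed the labels of the total RNA libraries. All 8 listed myotube genes were higher in MT than in MB, with a summed FPKM of 13.6 in MB and 1313 in MT, and all 6 listed cycling genes were lower. The 4 listed myoblast genes were not lower in MT. Myod1, Des and Cdh15 were called higher there, at FPKM ratios of 1.80, 1.98 and 2.40, and Myf5 was not called.

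**Figure D1:**
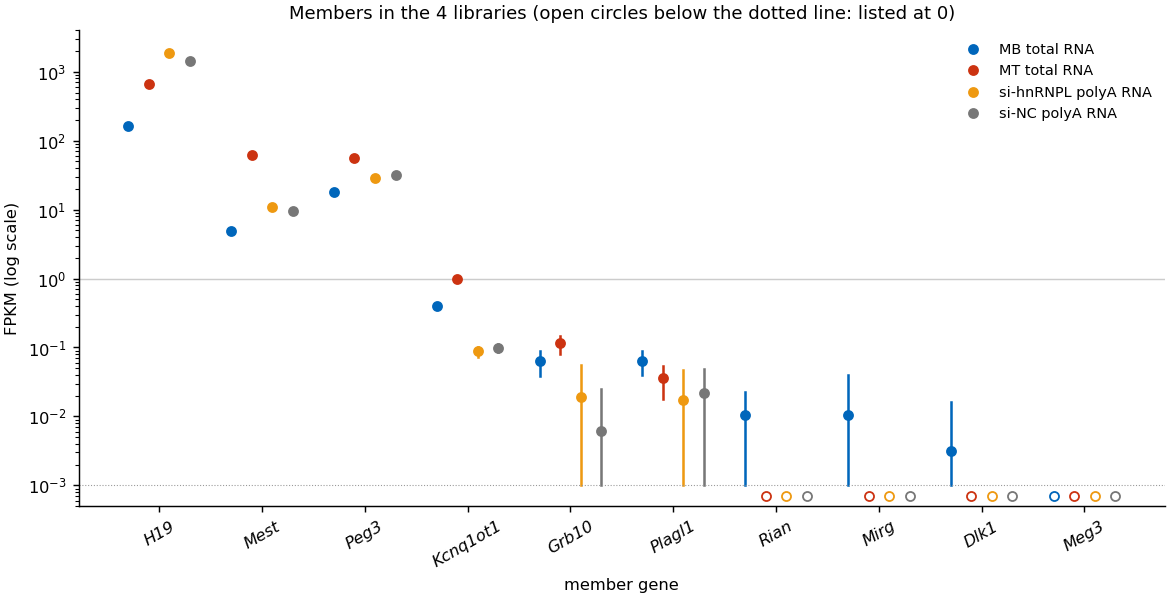
FPKM of the 10 members in the 4 libraries, on a log axis. Filled points are levels, vertical lines are the deposited 95% intervals and open circles mark entries listed at 0. H19, Mest and Peg3 lie above the grey line at an FPKM of 1 in every library, whereas Rian, Mirg, Dlk1 and Meg3 are at 0 in MT and in both polyA libraries.

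H19 was the most abundant member in every library. Its FPKM was 165 (interval 163 to 167) in MB and 662 (658 to 666) in MT of total RNA, while in polyA RNA si-NC was at 1432 (1374 to 1490) and si-hnRNPL at 1901 (1824 to 1979). MB was thus the lowest of the 4 libraries and no intervals overlapped. The MT over MB ratio was 4.02 (interval 3.96 to 4.07), a log2 difference of 2.00 that exceeded 97.4% of tested entries. In MB the H19 level was already above 97.7% of the named entries with a level above 0, and in MT it was above more than 99.9% of them. H19 lies at chr7:149761435-149764051 in mm9 on the minus strand, and its longest annotated transcript has 5 exons and 2286 bases.

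Mest, at chr6:30683506-30698466 on the plus strand, had the largest MT over MB difference among the members. Its FPKM was 4.83 (4.50 to 5.16) in MB, 62.8 (61.8 to 63.8) in MT, 10.9 (9.92 to 12.0) in si-hnRNPL and 9.46 (8.71 to 10.2) in si-NC. The MT total RNA library stood above the other three. The ratio of MT over MB was 13.01 (12.1 to 14.0), and the log2 difference of 3.45 exceeded 99.2% of tested entries. On the scale of fragments implied by the intervals the difference was larger still. The intervals imply 857 fragments in MB and 15113 in MT, a ratio of 17.6. By these values 1 FPKM stood for 1.36 times as many implied fragments in MT as in MB. That factor exceeded 96.9% of 11218 entries with at least 100 fragments in both libraries, whose median was 1.05. It was 1.01 for H19 and 1.05 for Peg3. These fragments come from interval widths alone, and whole numbers were checked only below 200 fragments. Whether numbers of reads or only interval widths differ in this way was not tested. Mest has 13 annotated transcripts and the separate starts shown above, and levels of single transcripts were not analysed here.

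The end of Mest overlaps Copg2, an imprinted neighbour that encodes a coat protein subunit and runs on the opposite strand. The genes share 904 exonic bases, out of 3937 of Mest and 4477 of Copg2. Copg2 was at 15.5 FPKM in MB and 40.7 in MT, a ratio of 2.63, and at 21.9 in si-NC and 22.1 in si-hnRNPL. Copg2 thus differed between MB and MT by less than Mest did. Whether fragments were counted by strand is not given in the sources used here, so reads of the shared bases cannot be told apart.

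Peg3 lies at chr7:6658671-6683130 on the minus strand. It was at an FPKM of 18.0 (17.6 to 18.3) in MB and 55.3 (54.7 to 56.0) in MT, and at 29.1 (27.6 to 30.6) in si-hnRNPL and 31.9 (30.4 to 33.4) in si-NC. MT was again the highest and MB the lowest. The MT over MB ratio was 3.08 (3.01 to 3.15) and the log2 difference of 1.57 exceeded 96.0% of tested entries. Its antisense partner Peg3os is annotated wholly inside the last exon of the longest Peg3 transcript and was at 20.3 in MB and 60.1 in MT, close to Peg3 itself, but at 0 in both polyA libraries. An assembled unit of 259 bases inside another Peg3 exon was at 1.44 in MB and 13.2 in MT. Reads of these entries and of Peg3 cannot be told apart without strand. Zim1, the neighbouring imprinted zinc finger gene, was also higher in MT, with 1.37 FPKM in MB and 15.7 in MT.

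For the members together, 3 of 10 were called higher in MT, against a background of 14.4%, and 0 of 10 were called lower, against 28.6%. The 3 that were called are also the only 3 with a mean FPKM of at least 1 in MB and MT, the filter of the background. Differences of the other 7 are compressed on the FPKM + 1 scale. At MB levels of at most 0.404 these 7 could not be called lower, so only 3 members can be set beside the 28.6%. The median log2 difference over the 10 members was 0.03, beside -0.21 over all tested entries. Relative to the median of all entries, the differences were 3.66 for Mest, 2.21 for H19 and 1.78 for Peg3 on the log2 scale.

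**Figure D2:**
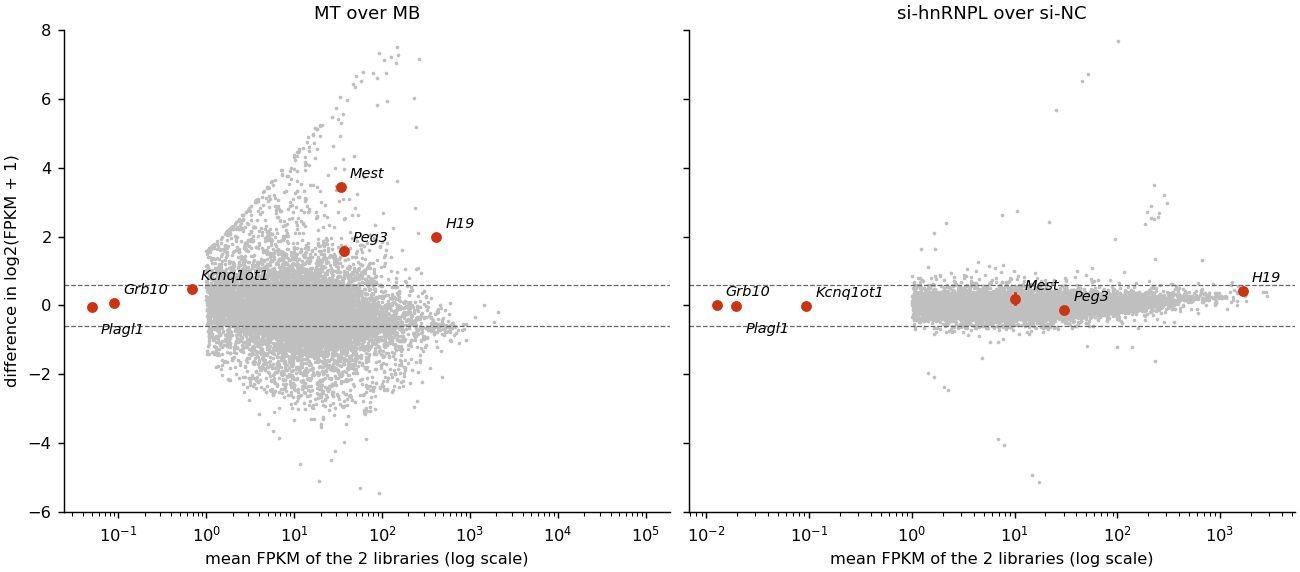
Difference in log2(FPKM + 1) against mean FPKM (log axis) for MT over MB (left) and si-hnRNPL over si-NC (right). Grey points are named entries with a mean FPKM of at least 1, red points are members with a mean FPKM above 0.01, red lines are their intervals and dashed lines mark a fold of 1.5. Mest, H19 and Peg3 lie above the dashed line on the left at 3.45, 2.00 and 1.57, and all members lie between the dashed lines on the right.

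Kcnq1ot1 was under an FPKM of 1 in every library, yet it was covered by many fragments because of its length. Its FPKM was 0.404 (0.388 to 0.419) in MB and 0.972 (0.949 to 0.995) in MT, which the intervals translate to 2785 and 6933 fragments. In polyA RNA it was at 0.0878 (0.0738 to 0.102) in si-hnRNPL and 0.0998 (0.0874 to 0.112) in si-NC. MT was the highest library and both polyA libraries were the lowest. The FPKM ratio of MT over MB was 2.41 (2.30 to 2.52), while the log2 difference of FPKM + 1 was 0.49 and stayed under the threshold, because the added 1 outweighs the level. Kcnq1ot1 was thus not called, although its intervals in MB and MT did not overlap. Its locus, chr7:150399016-150482452, lies inside that of Kcnq1, a potassium channel gene, which was at 0.0210 in MB and 0.0321 in MT. Of 10 listed imprinted genes within 500 kb of it, 6 had a mean FPKM of at least 1 in MB and MT, of which 1 was called higher, 1 lower and 4 neither. Cdkn1c, an inhibitor of cyclin-dependent kinases, was higher, at 1.96 in MB and 7.93 in MT, and Tssc4 was lower, at 24.7 and 13.5. Nap1l4, at 61.5 and 41.5, Osbpl5, at 20.2 and 24.2, Cd81 and Tnfrsf23 were not called.

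Grb10 (chr11:11830502-11937423) and Plagl1 (chr10:12810594-12851501) rested on few fragments. Grb10 was at an FPKM of 0.0637 (0.0381 to 0.0892) in MB and 0.115 (0.0814 to 0.148) in MT, corresponding to about 24.8 and 47.9 fragments, and at 0.00616 in si-NC and 0.0190 in si-hnRNPL, both of which had intervals that reach 0. Plagl1 was at 0.0639 (0.0393 to 0.0885) in MB and 0.0361 (0.0181 to 0.0542) in MT, from 27 and 16 fragments, and at 0.0222 in si-NC and 0.0171 in si-hnRNPL. For both genes the intervals of MB and MT overlapped. The receptors that Grb10 binds were at higher levels, and both were called higher in MT. Insr was at 3.43 FPKM in MB and 5.75 in MT, and Igf1r was at 4.29 and 7.90.

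The members of the Dlk1 to Dio3 domain on chromosome 12 were at or near 0 throughout. In order they are Dlk1 (chr12:110691033-110701546), Meg3 (chr12:110779206-110809939), Rian (chr12:110842155-110899921) and Mirg (chr12:110973191-110987667), all on the plus strand. Meg3 was listed at 0 in all 4 libraries, as were 23.1% of 23409 symbols with 1 row in each table. A count of 3 fragments over its longest annotated transcript of 14548 bases would equal an FPKM of 0.00270 in MB, 0.00258 in MT, 0.00647 in si-NC and 0.00995 in si-hnRNPL. By counting error only, the zeros allow about these levels for that transcript. Meg3 has 10 annotated transcripts, and a shorter one would have a higher limit. The calculation is approximate, since it puts 3 fragments of Rian in MB at 0.00748, below the listed level of 0.0106. Rian was at 0.0106 in MB, from 3 fragments, and at 0 elsewhere. Mirg at 0.0106 and Dlk1 at 0.00310 in MB had interval widths that imply less than 1 fragment each, and both were at 0 elsewhere. Both levels lay below those of 3 fragments over the longest transcript in MB, 0.0206 for Mirg and 0.00844 for Dlk1. No fold is given for these 4 genes.

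From the start of Dlk1 to the end of Mirg, a stretch of 297 kb, 73 entries were listed. Of these, 60 were microRNA and 7 snoRNA entries, all at 0, which such libraries rarely give a level. Of the 6 others, 3 were above 0 in MB (Dlk1, Rian and Mirg), 1 in MT (Rtl1 at 0.00227) and none in either polyA library, while 73.0% of all named entries of that kind were above 0 in MB and 76.0% in MT. The total RNA tables also hold transcript units assembled from the reads without an annotation, and none of these lay in the stretch. Over the whole domain to Dio3, 828 kb with 80 entries, the highest levels were in 3 assembled units in the part of the domain nearer to Dio3, of 0.0601, 0.135 and 0.273 in MB and 0.143, 0.121 and 0.286 in MT. Dio3, which inactivates thyroid hormone, was at 0.0212 in MB and 0.0404 in MT. The nearest genes outside the domain with an FPKM of at least 1 in all 4 libraries were Wdr25, at 3.60 in MB and 3.03 in MT, and Ppp2r5c, at 42.6 and 30.8.

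**Figure D3:**
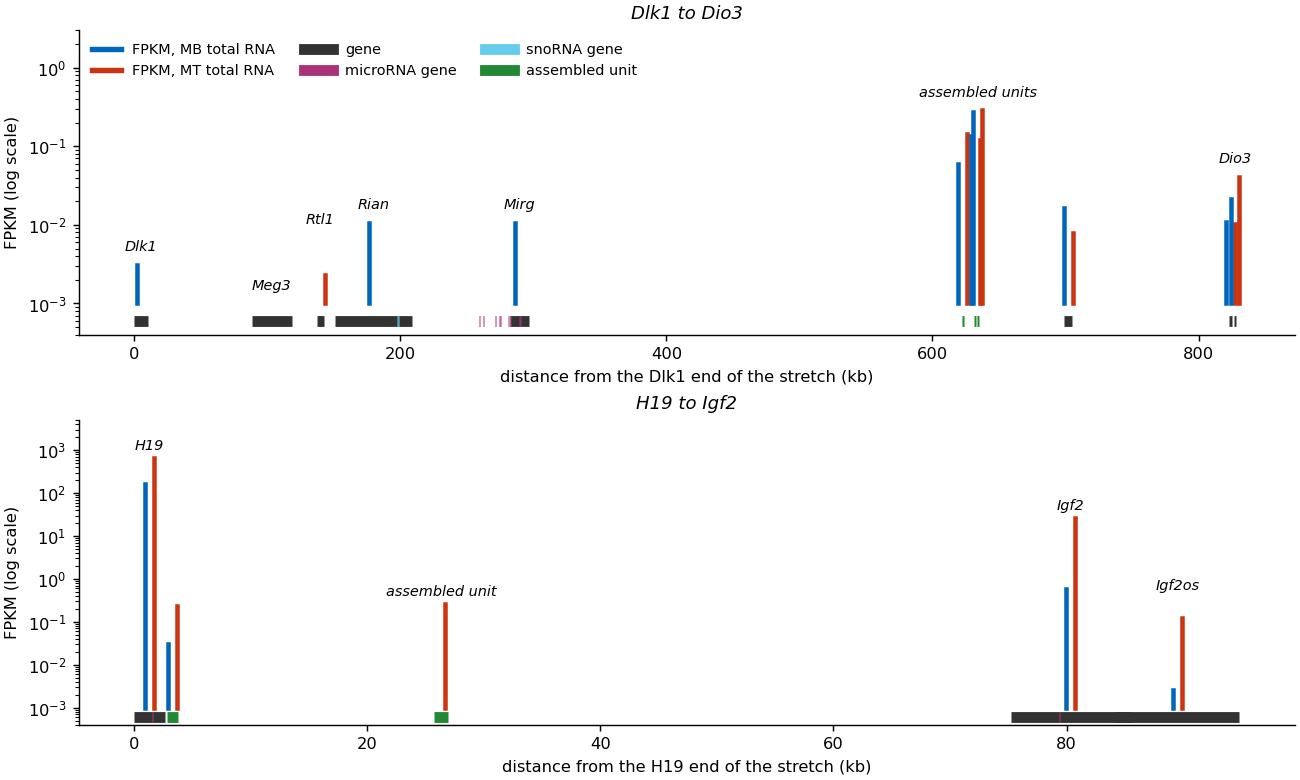
FPKM (log axis) of entries along the Dlk1 to Dio3 domain (top) and the H19 to Igf2 domain (bottom) against distance in kb. Blue bars are MB and red bars are MT total RNA, each drawn at the middle of its entry and set slightly apart, and the strip at the base shows the extent of each entry. The top panel stays below an FPKM of 0.3, whereas H19 reaches 165 in MB and 662 in MT and Igf2 0.588 and 26.5.

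In the H19 domain the neighbouring Igf2, the growth factor that shares enhancers with H19, differed more than H19 itself. Igf2 was at 0.588 FPKM in MB and 26.5 in MT, and at 13.9 in si-NC and 15.0 in si-hnRNPL. Its MT over MB ratio was 45.1, compared with 4.02 for H19. Between H19 and Igf2, an assembled unit at 0.0309 in MB and 0.236 in MT and another at 0 and 0.261 rested on at most 22 fragments each. Igf2os, which overlaps Igf2, was at 0.00261 in MB and 0.125 in MT. The Igf2 locus spans different bases in the total RNA and polyA tables, so its level is not comparable between them.

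Targets that have been reported for the microRNAs of H19 in muscle were set beside it, from a list of Smad1, Smad5 and Cdc6. Cdc6, a replication licensing factor, was at 17.2 FPKM in MB and 1.47 in MT and was called lower. Smad1 was at 22.2 in MB and 15.2 in MT, and Smad5 at 24.3 and 21.8, and neither was called. In polyA RNA Cdc6 was at 3.51 in si-NC and 1.70 in si-hnRNPL and was called lower, while Smad1 and Smad5 were not. All 6 cycling genes were also lower in MT, with log2 differences from -1.93 to -3.21, and the part of the cell cycle in the Cdc6 values was not tested.

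Between si-hnRNPL and si-NC the 3 expressed members stayed within the fold of 1.5. The log2 difference of si-hnRNPL over si-NC was 0.41 (interval 0.33 to 0.49) for H19, 0.19 (0.03 to 0.35) for Mest and -0.13 (-0.23 to -0.03) for Peg3. H19 had intervals that did not overlap between the libraries, with a ratio of 1.33, and it exceeded 96.5% of tested entries. Mest and Peg3 had overlapping intervals and lay at ratios of 1.16 and 0.911. Kcnq1ot1 had a ratio of 0.880 (0.719 to 1.08). Of the 10 members, 0 were called higher and 0 lower, and the median was 0.00 beside -0.010 over all tested entries. The background of 1.33% higher and 0.846% lower holds only entries with a mean FPKM of at least 1, as 3 members had. The other members were at most at 0.0998 in these libraries. At such levels a fold of 1.5 on the FPKM + 1 scale cannot be reached, so their lack of a call carries no information.

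Some markers of differentiation moved in the same library pair. Among 8 myotube genes, Ckm and Acta1 were called higher in si-hnRNPL, at log2 differences of 0.71 and 0.61, and 6 were not called. Of the 8, 6 lay above 0 and 2 below, Myh8 at -0.003 and Actn2 at -0.13. The list had a median of 0.39 and a summed FPKM of 1796 in si-NC and 2610 in si-hnRNPL, of which Acta1 alone made up 1009 and 1537. None of 4 myoblast genes was called, and their median was 0.06. Among 6 cycling genes, Mki67, Top2a and Mcm5 were called lower and the median was -0.53. The H19 difference of 0.41 lay close to the median of the myotube genes, and their part in it was not tested.

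The total RNA library of MT and the polyA library of si-NC differ in RNA selection, time in DM and transfection, which cannot be told apart. Of the 10 members, 3 were called higher in MT total RNA, against a background of 8.94%, and H19 was called lower, against 26.3%. The background holds only entries with a mean FPKM of at least 1, and Kcnq1ot1, called higher, had a mean of 0.536. Of the 3 members that passed this filter, 2 were higher and 1 was lower. The FPKM ratio of MT total RNA over si-NC polyA RNA was 9.74 for Kcnq1ot1, 6.63 for Mest and 1.73 for Peg3, and 0.462 for H19. The noncoding members thus lay on opposite sides, with Kcnq1ot1 higher in total RNA and H19 higher in polyA RNA. Of 3 RNAs known to stay in the nucleus, Malat1 was called higher and Neat1 lower in the same pair, and Xist was not called. In MT over MB all 3 were called higher, at ratios of 3.91 for Malat1, 3.41 for Neat1 and 2.70 for Xist, beside 4.02 for H19 and 2.41 for Kcnq1ot1, and their part in those values was not tested.

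Further genes known as imprinted were counted from a list of 53. The list was chosen with earlier results of these data known, so its counts beside the background are a description and not an independent comparison. FPKM does not separate the parental copies, so imprinting of these genes or of the members was not measured in these cells. Of the 30 with a mean FPKM of at least 1 in MB and MT, 10 were called higher in MT, 4 lower and 16 neither, against backgrounds of 14.4% higher and 28.6% lower, and the median log2 difference was 0.22, beside -0.21 over all tested entries. Without that filter, as the members were counted, 12 of 53 were higher and 4 lower, adding Ddc and Cpa4, and the median was 0.016. The 10 comprised the growth regulators Igf2, Igf2r and Cdkn1c, the noncoding RNA Airn, the matrix proteoglycan Dcn, and Zim1, Copg2, Zrsr1, Cobl and Trappc9. Dcn went from 0.503 FPKM in MB to 63.1 in MT, Igf2r from 7.40 to 24.4 and Airn from 0.268 to 2.97. The Airn level in MB rested on about 8.69 implied fragments. The loci of Airn and Igf2r overlap, and reads of shared bases cannot be told apart without strand. The 4 that were lower were Peg10, at 20.3 in MB and 7.66 in MT, Peg12, at 1.83 and 0.246, Tssc4, at 24.7 and 13.5, and Commd1, at 94.9 and 61.3. Peg10 is a gene of retrotransposon origin. Mest thus came after Dcn and Igf2 in order of size, and H19 and Peg3 lay among the genes that were called higher.

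In the polyA pair, 27 of the 53 genes had a mean FPKM of at least 1, of which 0 were called higher and 1 lower, against backgrounds of 1.33% and 0.846%. That gene was Airn, the RNA antisense to Igf2r, at 6.24 in si-NC and 2.88 in si-hnRNPL. Its log2 difference was -0.90 with an interval from -1.63 to -0.17, but the intervals of its levels overlapped (4.30 to 8.18 in si-NC, 1.23 to 4.53 in si-hnRNPL) and it was not called at a fold of 2. Igf2r, whose locus overlaps that of Airn, lay at -0.26 in the same pair, and reads of shared bases cannot be told apart without strand.

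**Figure D4:**
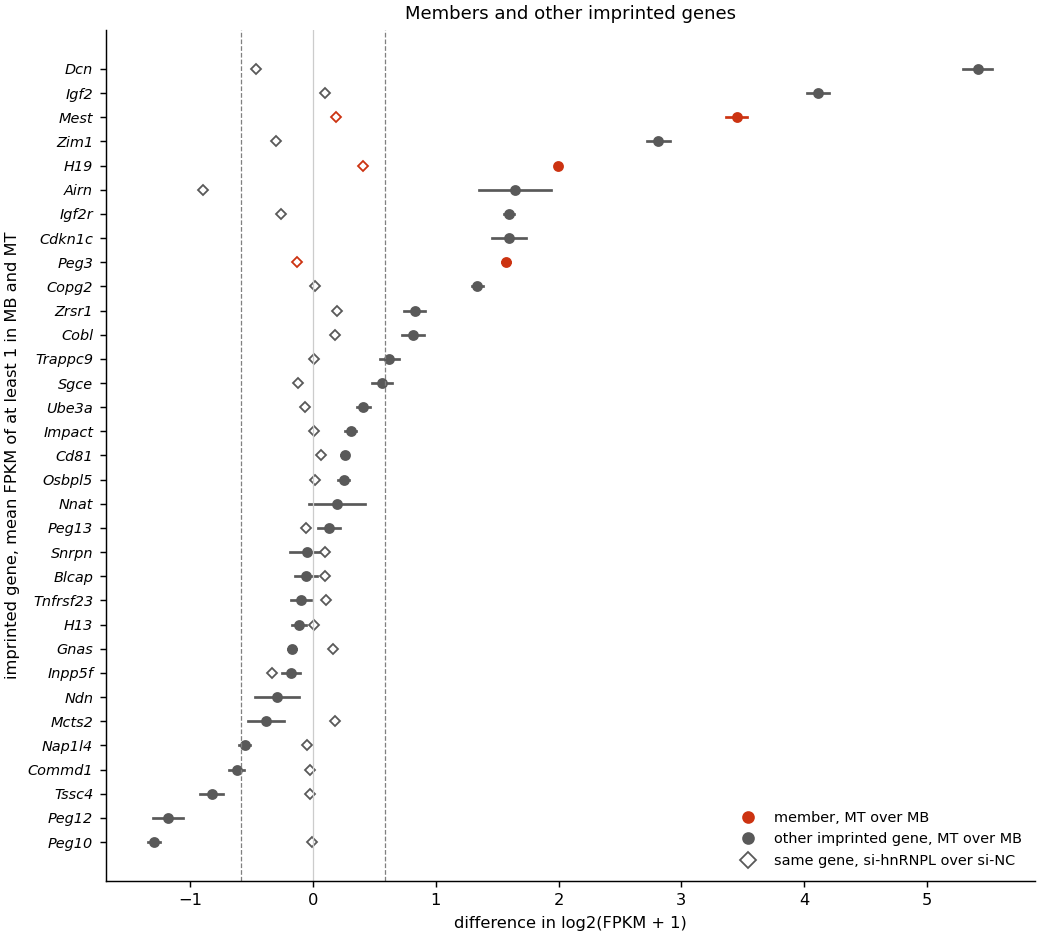
Difference in log2(FPKM + 1) for the imprinted genes with a mean FPKM of at least 1 in MB and MT, members in red and the other imprinted genes in grey. Filled points with intervals are MT over MB, open diamonds are si-hnRNPL over si-NC for genes with a mean FPKM of at least 1 there, and dashed lines mark a fold of 1.5. Mest, at 3.45, follows Dcn and Igf2, and Airn, at -0.90, is the only open diamond beyond a dashed line.

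The genes with levels most like those of the expressed members were found over the 4 libraries, as the smallest Euclidean distance between log2(FPKM + 1) values among 10077 symbols with an FPKM of at least 1 in each library. For Peg3 these were Msi2, Spry2 and Ankrd10, at distances of 0.28, 0.30 and 0.42. Msi2, for example, was at an FPKM of 17.8 in MB, 46.5 in MT, 35.0 in si-NC and 29.5 in si-hnRNPL. For Mest they were Postn, Gpx3 and Klhl24, at 0.70, 1.07 and 1.08. For H19 they were Cd63, Col3a1 and Tmsb10, at 1.23, 1.27 and 1.34, so no gene lay as close to H19 as the nearest genes did to Peg3. The closest to Mest, Postn, a matrix protein, was at 3.55 in MB, 91.8 in MT, 9.42 in si-NC and 9.03 in si-hnRNPL.

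Markers of other cell types moved in both directions between MB and MT. Of 5 adipocyte genes, Adipoq and Plin1 were listed at 0 in both libraries and Fabp4 was at 0.251 in MB and 0.0714 in MT. Pparg was called lower, at 14.8 and 3.94, and Cebpa was called higher, at 4.65 and 12.1. Of 5 osteoblast genes, Ibsp was at 0 in all 4 libraries, and Alpl at 0.0510 and 0.0487 and Sp7 at 0.131 and 0.0271 were not called. Runx2 was called lower, at 10.3 and 6.11, and Bglap, at 0.202 and 1.09, passed the fold of 1.5 upward with a mean FPKM under 1. The part of these cell types in the values of the members was not tested.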

How the data were processed

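The series holds 1 library per group, of total RNA (MB, MT) or polyA RNA (si-hnRNPL, si-NC). The authors trimmed reads, mapped them to mm9 with TopHat2, estimated abundance with Cufflinks and deposited FPKM values, each with its 95% bounds, position and status. Groups came from the sample titles. The members and all gene lists were chosen with earlier results of these data known.

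Differences were log2 ratios of FPKM + 1, called at a fold of 1.5. The background is every named entry with a mean FPKM of at least 1 over the 2 libraries and no failed status, and members were counted without that filter. Intervals of differences combine the half-widths of both levels in quadrature. Fragments were taken from the interval width, N = (2 x FPKM / (upper bound - FPKM)) squared, and summed to 59960176 in MB, 54442655 in MT, 21341051 in si-NC and 14592485 in si-hnRNPL. Below 200 fragments they were whole within 0.01 for 90.5% of entries in MB and 90.4% in MT. The share was 38.1% in si-hnRNPL and 39.3% in si-NC. No count test was therefore run, and polyA fragments of single genes are not quoted. The polyA sums are implied values and not library sizes, and the polyA limits for genes at 0 are approximate. Limits for genes at 0 used 3 fragments, the longest GENCODE vM1 transcript and the median number of fragments per FPKM and kb in single-transcript genes, and cover counting error only. The text names all members, called genes of the imprinted list, entries in or between member loci, the 3 nearest genes by level and the listed partners. RefSeq promoters were placed in mm9 by exact match. Calculations used Python 3.11.15, pandas 2.3.3, numpy 2.4.6 and matplotlib 3.10.9 and were tested on simulated data. Alternatives changed the pseudocount, the fold, the centring, the filter and the use of intervals.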

Additional observations from a re-analysis of the deposited data

How the results depend on the processing

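With a pseudocount of 0.01 the members called higher in MT went from 3 to 5, by Kcnq1ot1 and Grb10, those called lower in MT from 0 to 3, by Plagl1, Rian and Mirg, and those called higher in si-hnRNPL from 0 to 1, by Grb10, all of them under an FPKM of 1. The median log2 difference of the members, MT over MB, went from 0.03 to 0.20 with a pseudocount of 0.1, 0.38 with 0.01, 0.25 when centred on the median of all entries and 2.00 over the 3 members with a mean FPKM of at least 1. For si-hnRNPL over si-NC it went from 0.00 to 0.010 when centred and 0.19 over those 3. At a fold of 2, the other imprinted genes lower in MT went from 4 to 2 and those lower in si-hnRNPL from 1 to 0, and the members higher in MT total RNA than in si-NC polyA RNA from 3 to 1, Mest. The other 50 alternative values of these counts and medians stayed within 1.5 times or did not move. With a pseudocount of 0.1 or with centring, Kcnq1ot1 became the 4th member called higher in MT. No called member changed direction under any alternative that was run, and summing rows of the same symbol changed no member, since each had 1 row. No paired analysis was possible because each group has 1 library. Depth limits Rian, Mirg, Dlk1, Meg3, Grb10 and Plagl1, whose levels rest on fewer than 50 fragments per library. The cause of the differences between settings was not tested.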
